A study of Homo sapiens with 14 samples.

Results

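10 genes for secreted or induced mediators of inflammation were followed by gene name through both RNA tables of the study: CXCL1, CXCL2, CXCL3, IL8, IL1A, IL1B, IL6, PTGS2, SAA1 and LIF. They are 10 of the 63677 genes that each table lists, and all 10 were found in both tables. IL8 is the older symbol of CXCL8. RNA came from the cell line KYSE510 (esophageal squamous cell carcinoma), grown in RPMI-1640 with fetal bovine serum and transfected with small interfering RNA (siRNA) for 48 h. In the EZH2 series, cells received siEZH2-1, siEZH2-2 or siNC, and in the LAT1 series they received siLAT1-2, siLAT1-3 or an siNC of their own, with 2 libraries in each of the 6 groups and 12 in all. EZH2 methylates histone H3 as the enzyme of the Polycomb complex PRC2, and LAT1, encoded by SLC7A5, carries large neutral amino acids into the cell. All groups, siNC included, carry an siRNA, and no untransfected cells were analysed here. Everything below was measured in 1 cell line, in culture, without the leukocytes on which these mediators act.

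CXCL1, CXCL2, CXCL3 and IL8 encode chemokines that draw neutrophils through the receptors CXCR1 and CXCR2. Interleukin 1, made as IL1A and IL1B, acts on epithelial cells through NF-kB and induces these chemokines, IL6 and PTGS2, the inducible cyclooxygenase of prostaglandin synthesis. IL6 and LIF are related cytokines that signal through the shared receptor subunit IL6ST and the transcription factor STAT3, and SAA1 encodes serum amyloid A, an acute-phase protein that such signals induce. Squamous epithelia make interleukin 1 and these chemokines when injured, and many squamous carcinomas make them without injury.

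The promoters of the 4 chemokines are shown because these genes lie together on chromosome 4 and every siLAT1 library stood above siNC in each of them. A RefSeq promoter table (GRCh38.p14; 250 bases before to 50 after each start) held 8 of the 10 members, and LIF and SAA1 were not matched. Each sequence below runs 5′ to 3′ on the gene's strand and covers 120 bases upstream, ending a short distance before the start. Capitals mark a match to the NF-kB (kappa B) consensus, searched on both strands, in CXCL1, CXCL2 and CXCL3, where matches on the 2 strands overlap, and a match to the AP-1 motif TGANTCA, which reads as the same motif on both strands, in IL8. The windows are chr4:73869248-73869367 on the plus strand for CXCL1, chr4:74099221-74099340 on the minus strand for CXCL2, chr4:74038715-74038834 on the minus strand for CXCL3 and chr4:73740424-73740543 on the plus strand for IL8.
CXCL1: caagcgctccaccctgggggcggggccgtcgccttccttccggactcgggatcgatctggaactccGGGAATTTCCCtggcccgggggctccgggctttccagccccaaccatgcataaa
CXCL2: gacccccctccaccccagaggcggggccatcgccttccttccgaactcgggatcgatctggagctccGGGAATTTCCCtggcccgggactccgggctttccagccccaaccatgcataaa
CXCL3: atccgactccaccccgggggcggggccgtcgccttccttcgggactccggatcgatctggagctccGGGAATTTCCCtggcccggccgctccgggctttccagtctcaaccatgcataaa
IL8: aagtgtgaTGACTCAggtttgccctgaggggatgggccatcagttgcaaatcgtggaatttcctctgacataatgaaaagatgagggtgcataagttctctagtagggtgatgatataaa
CXCL1, CXCL2 and CXCL3 carry the same letters, GGGAATTTCC, at nearly the same distance from their starts. In the 300 bases searched, 4 members held the NF-kB consensus (these 3 and IL6) and 2 held the AP-1 motif (IL8 and IL1A), and neither was found in IL1B or PTGS2. Of 35116 promoters of that length, 5.91% held the NF-kB consensus and 7.71% the AP-1 motif. In the IL8 stretch printed, the letters tggaatttcc differ from GGGAATTTCC in the first letter only, and they were not marked. Sites that depart from the consensus were not searched for, so an unmarked promoter may still hold one. These matches describe letters only. The near-identical stretches also show how alike CXCL1, CXCL2 and CXCL3 are, and how the counting treated reads that fit more than 1 of them is not given in the sources used here.

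The tables give FPKM, a count scaled to gene length and to library depth, so levels can be set side by side between genes. The steps by which low values rise put the depth at 21120000 to 27240000 counted reads or fragments for EZH2 libraries and 12880000 to 17000000 for LAT1 libraries. At that depth 1 read in a gene of 1 kb was worth 0.0367 to 0.0474 FPKM and 0.0588 to 0.0776 FPKM. The targets checked the labels: EZH2 stood at 40.6% of siNC with siEZH2-1 and 36.4% with siEZH2-2, and SLC7A5 at 20.3% with siLAT1-2 and 26% with siLAT1-3. All 8 squamous epithelial markers, KRT5 highest, averaged at least 1 FPKM in both series, and none of 10 immune markers did. Summed over a library, the immune markers came to 0.22 to 0.43 FPKM in the EZH2 series and 0.78 to 1.23 FPKM in the LAT1 series. Among other cell types, COL1A1 of 6 fibroblast markers and, in the LAT1 series, CDH5 of 4 endothelial markers averaged over 1 FPKM, at 2.00 FPKM or less. Whether the 2 libraries of a group are separate cultures is not stated, so the p-values reflect a spread between libraries that may be technical only. In such bulk RNA, fewer cells making a transcript and less of it per cell cannot be told apart.

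With siNC the mediators stood at quite different levels in the 2 series. IL8 was at 1.05 and 1.14 FPKM in the EZH2 series and at 38.94 and 35.13 FPKM in the LAT1 series, 33.8 times that level. CXCL1 was listed at 0 in both siNC libraries of the EZH2 series, and was at 23.99 and 22.97 FPKM in the LAT1 series. For both chemokines the libraries of the 2 series were far apart. PTGS2 stood in the LAT1 series at 14.5 times its EZH2 series level, CXCL3 at 7.24 times, CXCL2 at 4.51 times and IL1B at 4.23 times. IL1A differed less, at 1.35 times, and IL6, LIF and SAA1 were lower in the LAT1 series, at 0.661, 0.506 and 0.632 of their EZH2 series level. On the log2(FPKM + 1) scale, 5 of 10 members were higher by at least 1 (CXCL1, CXCL2, IL8, IL1B and PTGS2), beside 7.41% of the 12423 genes at 1 FPKM or more in either siNC. The median difference was 0.87 over the members and -0.11 over these genes.

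The tables were normalized separately, so this contrast has no test, and cell batch, sequencing run and counting cannot be told apart. A zero in the EZH2 table need not mean no RNA: UBB, a ubiquitin gene that every cell uses, was listed at 0 in all 6 of its libraries and at 56.72 to 69.38 FPKM in the LAT1 table. In all, 37 genes were listed at 0 in both siNC libraries of the EZH2 series and at 5 FPKM or more in both of the LAT1 series, and 0 genes the other way round. CXCL1 is therefore given below as listed at 0, with no fold change in the EZH2 series.

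**Figure D1:**
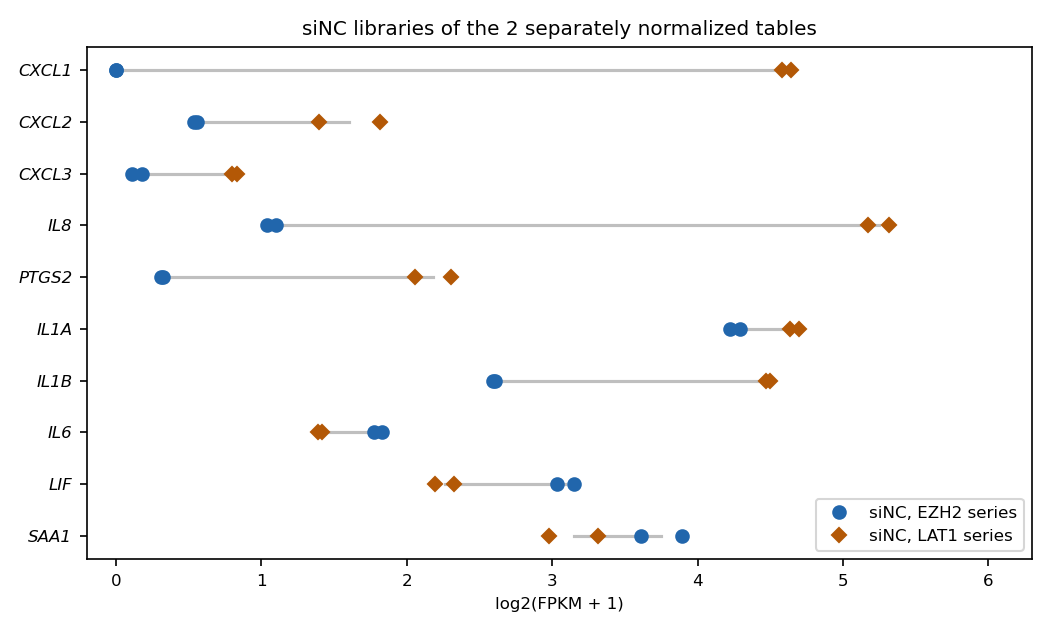
Level of each member in the 2 siNC libraries of each series, drawn as log2(FPKM + 1), 1 point per library. IL8 and CXCL1 lie furthest apart between the series (IL8 at 1.05 and 1.14 against 38.94 and 35.13 FPKM), while IL6, LIF and SAA1 lie somewhat lower in the LAT1 series.

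The order of the levels differed with the baseline. In siNC of the EZH2 series IL1A was highest at 18.1 ± 0.66 FPKM (SD, n = 2), followed by SAA1 at 12.5 ± 1.84, LIF at 7.51 ± 0.49, IL1B at 5.07 ± 0.05, IL6 at 2.49 ± 0.10 and IL8 at 1.09 ± 0.06. CXCL2, PTGS2, CXCL3 and CXCL1 were each under 0.5 FPKM. In siNC of the LAT1 series IL8 led, with IL1A, CXCL1 and IL1B next. IL1A at 24.93 and 23.91 FPKM and CXCL1 at 23.99 and 22.97 FPKM were neighbours whose libraries overlapped. LIF at 3.58 and 4.02 FPKM and PTGS2 at 3.93 and 3.16 FPKM also overlapped, as did CXCL2 and IL6.

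With both LAT1 siRNAs CXCL1, CXCL2, IL8 and PTGS2 rose, and with both EZH2 siRNAs IL1A, IL1B, LIF and SAA1 fell. In the LAT1 series all 10 members averaged 1 FPKM or more and entered the limma fit on log2(FPKM + 1), but CXCL3 did so only through the siLAT1 libraries, where it was high, and is given by value. Of the other 9, by the mean of both siRNAs, 5 were higher and 0 lower than siNC at an adjusted p (Benjamini-Hochberg over all genes) under 0.05, beside 19.3% and 15.3% of all genes tested. By limma at an unadjusted p under 0.05, 5 were higher and 1 lower. The share of all genes at an unadjusted p was not counted, here or below. Such counts therefore cannot be set beside the shares given, which are for adjusted p. In the EZH2 series 6 of the 10 members averaged 1 FPKM or more and were tested; 1 was higher (IL8) and 4 lower, beside 17.0% and 13.0% of all genes. CXCL1, CXCL2, CXCL3 and PTGS2 were under that level and are given by value. The median log2 fold change was 0.22 over these 9 members with LAT1 siRNAs and -0.59 over the 6 with EZH2 siRNAs, beside 0.01 and 0.03 over all genes. These members were named with results of these data known, so the counts describe them and test nothing about the list.

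**Figure D2:**
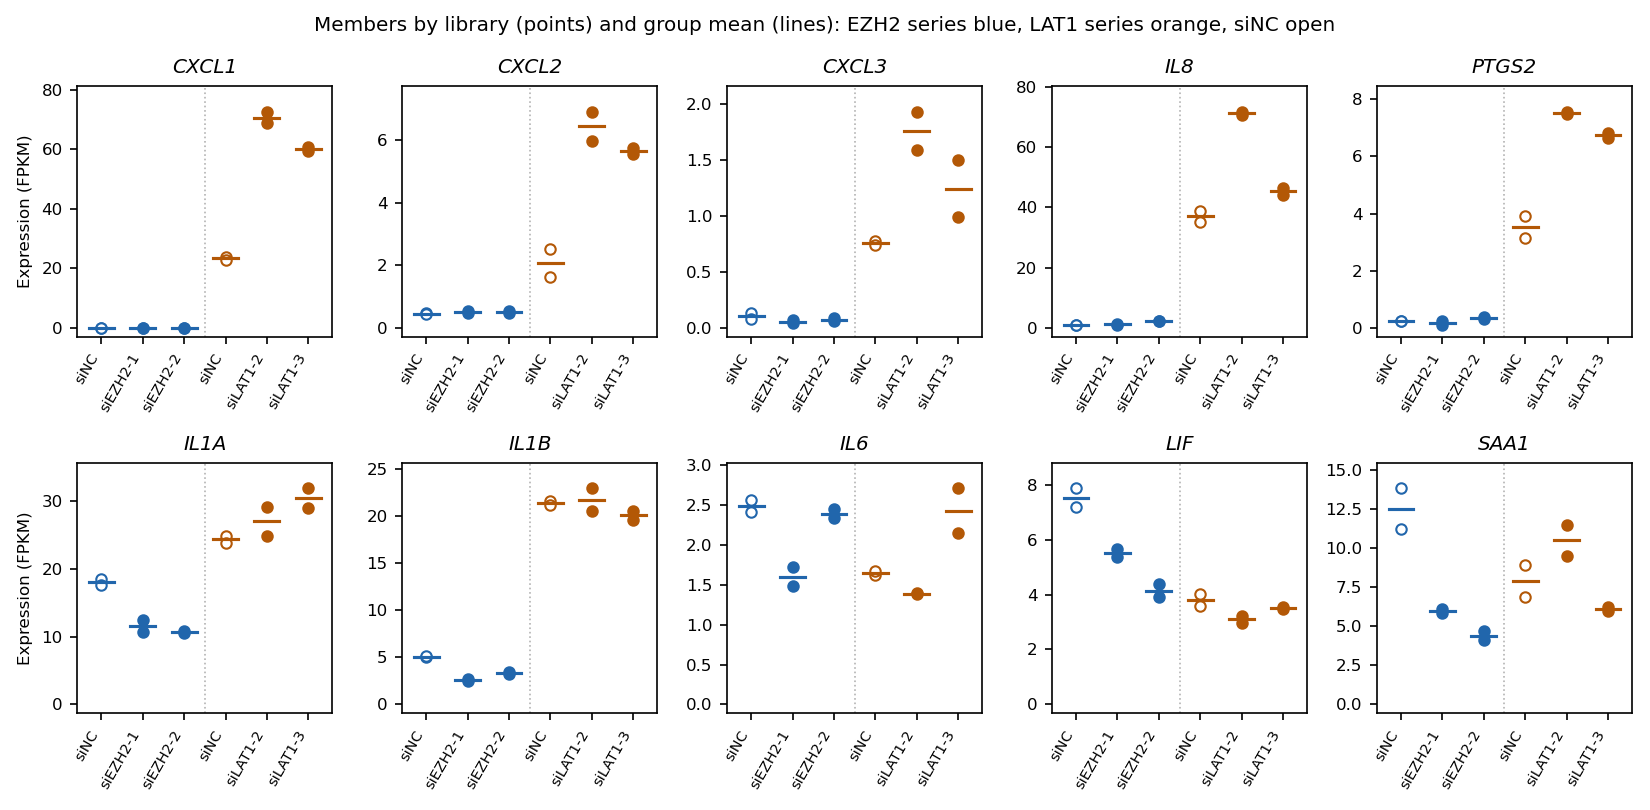
Level of the 10 members in FPKM in each of the 12 libraries, 1 panel per member and 1 point per library with the group mean as a line, on an axis of its own in each panel. In the LAT1 series CXCL1, CXCL2 and PTGS2 stand above siNC with both siRNAs, and in the EZH2 series IL1A, IL1B, LIF and SAA1 stand below it.

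CXCL1, a main neutrophil attractant of epithelial cells, had the largest mean fold change among the members in the LAT1 series on the log2(FPKM + 1) scale. It was at 23.99 and 22.97 FPKM with siNC, at 72.63 and 68.87 with siLAT1-2 and at 59.33 and 60.81 with siLAT1-3. The 3 groups did not overlap, and siLAT1-2 was highest. Its level was 3.01 times that of siNC with siLAT1-2 and 2.56 times with siLAT1-3, with 1.44 ± 0.03 (SE) as the mean log2 fold change (limma adjusted p = 3.76e-06). With EZH2 siRNAs and their siNC, CXCL1 was listed at 0 in 5 libraries and at 0.04 FPKM, about 1 read in a 1 kb gene, in siEZH2-2 replicate 2.

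CXCL2, a close relative of CXCL1, had 2.52 and 1.63 FPKM with siNC of the LAT1 series, 6.90 and 5.98 with siLAT1-2, and 5.57 and 5.75 with siLAT1-3. Every siLAT1 library was above both siNC libraries, which differed widely from each other. CXCL2 stood at 3.10 times its siNC level with siLAT1-2 and 2.73 times with siLAT1-3, slightly more than CXCL1 by this ratio. The mean log2 fold change was 1.21 ± 0.12 (limma adjusted p = 4.64e-04), on a scale that understates the change of low genes. CXCL2 in the EZH2 series ran from 0.45 to 0.53 FPKM over all 6 libraries, with siEZH2-1 touching siNC and siEZH2-2 just above it.

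CXCL3, the least abundant of the chemokines in the LAT1 series, had 0.78 and 0.74 FPKM with siNC, 1.59 and 1.93 with siLAT1-2, and 1.5 and 0.99 with siLAT1-3. All siLAT1 libraries were above siNC, siLAT1-3 replicate 2 by little. The level was 2.32 times that of siNC with siLAT1-2 and 1.64 times with siLAT1-3. Since siNC was under 1 FPKM and only the siLAT1 libraries brought the gene over the filter, no test is given. CXCL3 in the EZH2 series stayed between 0.04 and 0.13 FPKM in all libraries.

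IL8, the main human ligand of CXCR1 and CXCR2, was the most abundant member with siNC of the LAT1 series. It had 38.94 and 35.13 FPKM with siNC, 70.74 and 71.66 with siLAT1-2, and 44.26 and 46.46 with siLAT1-3. Both siRNAs stood above siNC, and siLAT1-2 far above siLAT1-3. The log2 fold change was 0.93 with siLAT1-2 and 0.29 with siLAT1-3 (limma adjusted p = 0.00637 for the latter), and 0.61 ± 0.04 for their mean (limma adjusted p = 1.39e-04). The call from the mean was lost when both siRNAs were pooled as 1 group (limma adjusted p = 0.141), and that with siLAT1-3 when no filter was used (0.0516).

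IL8 differed between the siRNAs in the EZH2 series, too. It had 1.05 and 1.14 FPKM with siNC, 1.09 and 1.40 with siEZH2-1, and 2.21 and 2.22 with siEZH2-2. The siEZH2-1 libraries overlapped siNC and the siEZH2-2 libraries stood above both. With siEZH2-2 the log2 fold change was 0.62 (limma adjusted p = 0.00703), and with siEZH2-1 it was 0.10 (limma adjusted p = 0.508). The mean of both was 0.36 ± 0.09 (limma adjusted p = 0.0249), a call lost in 7 of 11 alternatives. Among them were both siRNAs pooled (limma adjusted p = 0.27), no filter (0.111) and quantile normalization (0.057). The call was also lost without siNC replicate 1 or replicate 2, siEZH2-1 replicate 2 or siEZH2-2 replicate 1. The log2 fold change was then 0.31 to 0.39.

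**Figure D3:**
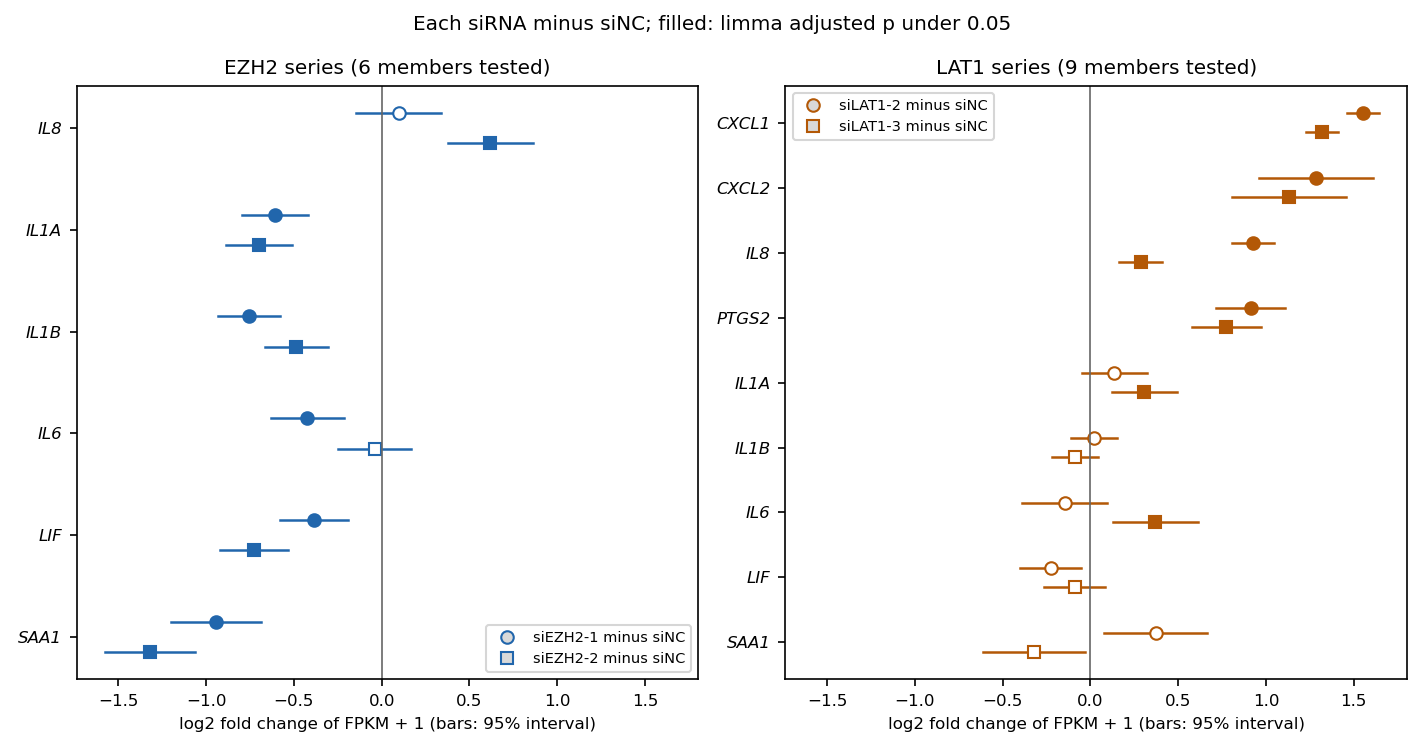
Log2 fold change of each tested member other than CXCL3 against siNC on the log2(FPKM + 1) scale, for each siRNA, with 95% intervals from the limma fit. CXCL1, CXCL2 and PTGS2 lie at 0.77 or above with both LAT1 siRNAs, and IL1A, IL1B, LIF and SAA1 lie below 0 with both EZH2 siRNAs.

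PTGS2, the inducible cyclooxygenase COX-2, was measured in the same way. Its LAT1 series values were 3.93 and 3.16 FPKM with siNC, 7.56 and 7.49 with siLAT1-2, and 6.65 and 6.83 with siLAT1-3. No siLAT1 library overlapped siNC, and the libraries of each siRNA lay close together. PTGS2 was 2.12 and 1.90 times its siNC level, with a mean log2 fold change of 0.84 ± 0.07 (limma adjusted p = 2.58e-04). Its EZH2 series values were 0.24 and 0.25 FPKM with siNC, 0.25 and 0.12 with siEZH2-1, and 0.30 and 0.39 with siEZH2-2. The siEZH2-1 libraries touched siNC, those of siEZH2-2 lay above it, and no test was made at this level.

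IL1A encodes interleukin 1 alpha, which is active as made and works as an alarm signal when cells are damaged. Its EZH2 series values were 18.57 and 17.63 FPKM with siNC, 12.43 and 10.70 with siEZH2-1, and 10.91 and 10.60 with siEZH2-2. All siEZH2 libraries were below siNC, and the siRNAs overlapped each other. The mean log2 fold change was -0.65 ± 0.07 (limma adjusted p = 0.00128).

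IL1A in the LAT1 series had 24.93 and 23.91 FPKM with siNC, 24.89 and 29.18 with siLAT1-2, and 31.90 and 29.02 with siLAT1-3. The siLAT1-2 libraries overlapped siNC and the siLAT1-3 libraries stood above it. With siLAT1-3 the log2 fold change was 0.31 (limma adjusted p = 0.0251) and with siLAT1-2 it was 0.14 (limma adjusted p = 0.22). The siLAT1-3 call was lost when siLAT1-3 replicate 1 (limma adjusted p = 0.121), siNC replicate 1 (0.0812) or siNC replicate 2 (0.124) was left out, and with no filter (0.141). The mean log2 fold change was 0.22 ± 0.07 (limma adjusted p = 0.0425). The call from the mean was lost in 7 of 12 alternatives, among them those without siNC replicate 1 (limma adjusted p = 0.126), without siNC replicate 2 (0.212), without siLAT1-3 replicate 1 (0.0965), without siLAT1-2 replicate 2 (0.0509) and with a replicate block (0.0645).

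IL1B, whose product must be cleaved before it is active, also fell in the EZH2 series. It had 5.03 and 5.10 FPKM with siNC, 2.49 and 2.69 with siEZH2-1, and 3.44 and 3.22 with siEZH2-2. The 3 groups did not overlap, and siEZH2-1 was lowest. IL1B stood at 51.1% of siNC with siEZH2-1 and 65.8% with siEZH2-2, a mean log2 fold change of -0.62 ± 0.06 (limma adjusted p = 0.0012). Over the LAT1 series it ran from 19.61 to 22.96 FPKM over all 6 libraries, with both siLAT1-3 libraries below siNC and siLAT1-2 on either side. The mean log2 fold change there was -0.03 (limma adjusted p = 0.627), which missed the threshold.

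IL6, the cytokine that drives the acute-phase response, was low in both series. Its EZH2 series values were 2.42 and 2.56 FPKM with siNC, 1.72 and 1.49 with siEZH2-1, and 2.34 and 2.45 with siEZH2-2. The siEZH2-1 libraries were below all others, and siEZH2-2 overlapped siNC. With siEZH2-1 the log2 fold change was -0.42 (limma adjusted p = 0.0154) and with siEZH2-2 it was -0.04 (limma adjusted p = 0.771). Their mean, -0.23, missed the threshold (limma adjusted p = 0.0591). The siEZH2-1 call was lost without siEZH2-1 replicate 2 (limma adjusted p = 0.0978), siNC replicate 1 (0.0678) or siNC replicate 2 (0.0736).

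IL6 in the LAT1 series had 1.62 and 1.67 FPKM with siNC, 1.40 and 1.38 with siLAT1-2, and 2.71 and 2.15 with siLAT1-3. The siLAT1-2 libraries lay below siNC and those of siLAT1-3 above it. With siLAT1-3 the log2 fold change was 0.37 (limma adjusted p = 0.0323), and with siLAT1-2 it was -0.15, which missed the threshold (limma adjusted p = 0.309). The siLAT1-3 call was lost without siLAT1-3 replicate 1 (limma adjusted p = 0.142), siNC replicate 1 (0.13) or siNC replicate 2 (0.109).

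LIF, a cytokine of the IL6 family, fell in the EZH2 series. It had 7.17 and 7.86 FPKM with siNC, 5.67 and 5.36 with siEZH2-1, and 3.91 and 4.37 with siEZH2-2. The 3 groups did not overlap, and siEZH2-2 was lowest, at 55.1% of siNC against 73.4% for siEZH2-1. The mean log2 fold change was -0.56 ± 0.07 (limma adjusted p = 0.00234). The change with siEZH2-1 alone, -0.39 (limma adjusted p = 0.0163), lost its call when either siEZH2-1 library (0.0507 and 0.101) or siNC replicate 2 (0.0773) was left out. LIF in the LAT1 series had 3.58 and 4.02 FPKM with siNC, 2.98 and 3.22 with siLAT1-2, and 3.55 and 3.47 with siLAT1-3. Every siLAT1 library was below siNC, by a mean log2 fold change of -0.16 that missed the threshold (limma adjusted p = 0.0985).

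SAA1 had the largest decrease among the members in the EZH2 series. It had 11.23 and 13.83 FPKM with siNC, 6.10 and 5.88 with siEZH2-1, and 4.71 and 4.10 with siEZH2-2. The 3 groups did not overlap. SAA1 stood at 47.8% of siNC with siEZH2-1 and 35.2% with siEZH2-2, and its mean log2 fold change was -1.13 ± 0.09 (limma adjusted p = 5.57e-04). Its near-identical neighbour SAA2 was at 0.03 to 0.23 FPKM in this series, and how reads shared by the pair were counted is not given in the sources used here.

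SAA1 in the LAT1 series had 8.95 and 6.89 FPKM with siNC, 11.50 and 9.51 with siLAT1-2, and 5.97 and 6.23 with siLAT1-3. The siLAT1-2 libraries lay above siNC and the siLAT1-3 libraries below it, and siNC itself spread widely. Against siNC, neither siRNA passed the threshold (log2 fold change 0.37 with limma adjusted p = 0.0576, and -0.32 with limma adjusted p = 0.0916), and both did in other alternatives. The siLAT1-2 change passed without siNC replicate 1 (limma adjusted p = 0.0253) or siLAT1-2 replicate 2 (0.0454) and with the replicate block (0.0335), and the siLAT1-3 change passed without siNC replicate 2 (0.0351). SAA2 was at 0.32 and 0.30 FPKM with siNC, 0.79 in both siLAT1-2 libraries, and 0.38 and 0.48 with siLAT1-3.

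Each siRNA was also counted alone. Of the 9 members other than CXCL3 in the LAT1 series, 4 were higher and 0 lower with siLAT1-2 (18.6% and 13.9% of all genes), and 6 were higher and 0 lower with siLAT1-3 (17.9% and 13.6%). Of the 6 tested in the EZH2 series, 0 were higher and 5 lower with siEZH2-1 (15.9% and 11.4%), and 1 was higher and 4 lower with siEZH2-2 (13.9% and 10.9%). By limma at an unadjusted p under 0.05, the counts were 5 higher and 1 lower, 6 and 1, 0 and 5, and 1 and 4, in the same order. The percentages above are for adjusted p and do not apply to them. Both siRNAs of a series share their siNC libraries, so their fold changes are not independent of each other. The sum of the squamous markers was 656.8 to 672.6 FPKM with siLAT1-2, 721.5 to 731.5 with siLAT1-3 and 714.1 to 724.1 with siNC. In the EZH2 series it was 633.0 to 636.8 with siEZH2-1, 565.9 to 616.9 with siEZH2-2 and 609.8 to 651.3 with siNC. Its part in these results was not tested.

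The siRNAs against the same target were also set against each other, where siNC libraries enter only the estimate of spread. In the LAT1 series 4 of the 9 members other than CXCL3 differed, beside 25.5% of all genes, and in the EZH2 series 3 of 6 differed, beside 16.3%. With siLAT1-3, IL8 was lower than with siLAT1-2 by a log2 difference of -0.64 (limma adjusted p = 2.66e-04), SAA1 by -0.69 (limma adjusted p = 0.00762) and CXCL1 by -0.23 (limma adjusted p = 0.00583). IL6 was higher with siLAT1-3 by 0.52 (limma adjusted p = 0.0113). For IL6 and SAA1 the siRNAs thus lay on opposite sides of siNC, and for CXCL1 and IL8 on the same side at different heights. Of the IL6 and SAA1 changes against siNC, only that of IL6 with siLAT1-3 passed the threshold. With siEZH2-2, IL8 was higher than with siEZH2-1 by 0.52 (limma adjusted p = 0.0187) and IL6 by 0.38 (limma adjusted p = 0.0304), and LIF was lower, by -0.34 (limma adjusted p = 0.0342). IL1A and IL1B did not pass the threshold between the EZH2 siRNAs (limma adjusted p = 0.477 and 0.0544). The IL8 difference between the EZH2 siRNAs lost its call without either siEZH2-2 library or without siEZH2-1 replicate 1 (limma adjusted p up to 0.0875 among these), the LIF difference without any 1 of the 4 siEZH2 libraries (up to 0.145), and the IL6 difference without any 1 of the 6 libraries (up to 0.169). In the LAT1 series the IL6 difference was lost without siLAT1-2 replicate 2 (limma adjusted p = 0.0505) or siLAT1-3 replicate 1 (0.0511).

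The rest of the pathway was read through 8 lists of other genes, 134 in all. By the mean of both siRNAs, 5 were higher and 15 lower of 76 tested in the EZH2 series (6.6% and 19.7%), and 23 higher and 20 lower of 85 tested in the LAT1 series (27.1% and 23.5%). SOCS1, counted among the 15, reached the filter only through its siNC libraries and is given by value below. The shares over all genes were those given above for the members, 17.0% and 13.0% for EZH2 siRNAs and 19.3% and 15.3% for LAT1 siRNAs. The medians over the lists were -0.07 and -0.003 on the log2 scale. Up to 4 called genes per list and series were taken by size of change, and 6 of these 20 in the EZH2 series and 8 of these 28 in the LAT1 series were called under every alternative other than a minimum log2 fold change of 1. The 6 were TAB2, CAPN2, SOCS3, STAT3, PTGES and ATF3, and the 8 were IL18, IL1RAP, IRAK2, MAP3K7, STAT3, CEBPD, JUN and ZFP36L1.

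Other chemokines and cytokines were mostly under 1 FPKM. Of 29 listed, 21 among EZH2 libraries and 18 among LAT1 libraries were under 1 FPKM in all libraries, among them the further CXCR2 ligands CXCL5, CXCL6 and PPBP, and TNF. Among 9 tested in the LAT1 series 2 were higher and 2 lower, and among 8 in the EZH2 series 0 were higher and 2 lower (0 and 3 by limma at an unadjusted p under 0.05). CCL20, which attracts dendritic cells and lymphocytes, had 8.41 and 8.06 FPKM with siNC, 13.71 and 12.51 with siLAT1-2, and 8.75 and 10.42 with siLAT1-3 (mean log2 fold change 0.40; limma adjusted p = 0.00552). It stood above siNC in all siLAT1 libraries, most with siLAT1-2, and its call was lost without siNC replicate 2 (limma adjusted p = 0.0529). CSF1, a growth factor of macrophages, was at 16.0 ± 0.98 and 13.5 ± 0.11 FPKM (SD, n = 2) against 11.3 ± 0.20 with siNC. IL18, a cytokine of the interleukin 1 family, was lower in both series, by a mean log2 fold change of -0.33 (limma adjusted p = 3.55e-04) in the LAT1 series and -0.30 (limma adjusted p = 0.00439) in the EZH2 series.

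Receptors for the mediators were unevenly present. CXCR1, CXCR2 and IL1R1 were under 1 FPKM in every library, CXCR2 reaching 0.84 FPKM and IL1R1 0.78 FPKM in the LAT1 series. The IL6 family receptors IL6ST and OSMR were well above it, OSMR at 22.69 to 35.21 FPKM in the EZH2 series and 35.44 to 48.39 FPKM in the LAT1 series. OSMR and IL6ST were lower in both series. The calls of IL6ST were lost in both series without either siNC library, and in the EZH2 series in 7 alternatives in all (limma adjusted p up to 0.236). The EZH2 series call of OSMR was lost without siNC replicate 1 (limma adjusted p = 0.0895). In the LAT1 series 1 of 10 receptors tested was higher and 4 lower, and in the EZH2 series 0 of 8 were higher and 2 lower (0 and 4 by limma at an unadjusted p under 0.05). IL1RAP, the co-receptor of interleukin 1, had 11.64 and 11.60 FPKM with siNC of the LAT1 series, 7.52 and 7.90 with siLAT1-2, and 8.01 and 8.18 with siLAT1-3. All siLAT1 libraries were below siNC (mean log2 fold change -0.50 ± 0.04; limma adjusted p = 1.60e-04). IL6R, the ligand-binding receptor of IL6, was the 1 that rose, from 7.81 ± 0.34 FPKM to 8.90 ± 0.13 with siLAT1-2 and 11.7 ± 0.04 with siLAT1-3.

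The next list held genes of interleukin 1 processing and signalling. Of 16 tested in the EZH2 series 2 were higher and 2 lower, and in the LAT1 series 2 of 17 were higher and 4 lower. TAB2, an adaptor that links ubiquitin chains to the kinase of this pathway, had 24.44 and 21.75 FPKM with siNC of the EZH2 series, 13.94 and 12.96 with siEZH2-1, and 13.38 and 15.01 with siEZH2-2. It was below siNC in all 4 siEZH2 libraries (mean log2 fold change -0.70; limma adjusted p = 0.00124). CAPN2, a calpain protease, was lower by -0.41 (limma adjusted p = 0.0016). With LAT1 siRNAs IRAK2, a kinase of the receptor complex, rose from 2.79 ± 0.05 FPKM to 4.03 ± 0.07 and 3.80 ± 0.13, and MAP3K7, which encodes the kinase TAK1, was lower by -0.31 (limma adjusted p = 7.25e-04).

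In IL6 family signalling, STAT3, the transcription factor of the pathway, rose in both series. It had 15.93 and 15.90 FPKM with siNC of the EZH2 series, 22.72 and 21.71 with siEZH2-1, and 20.62 and 21.71 with siEZH2-2. Its LAT1 series values were 27.51 and 27.92 FPKM with siNC, 36.27 and 36.00 with siLAT1-2, and 36.07 and 34.97 with siLAT1-3. All 8 siRNA libraries stood above their siNC (mean log2 fold change 0.42 and 0.36; limma adjusted p = 0.00174 and 1.52e-04). SOCS3, a STAT3 target that inhibits the pathway, was lower in the EZH2 series, at 5.89 ± 0.14 and 6.46 ± 0.69 FPKM against 9.15 ± 0.16 with siNC (mean log2 fold change -0.50; limma adjusted p = 0.00338). Of the 8 genes on this list, 1 was higher and 2 lower in the EZH2 series, and 1 was higher and 1 lower in the LAT1 series. SOCS1 was 1 of the 2 lower in the EZH2 series. It had 1.38 and 1.71 FPKM with siNC, 0.92 and 1.15 with siEZH2-1, and 0.57 in both siEZH2-2 libraries. Only the siNC libraries, where SOCS1 was high, brought it over the filter, so no test of it is given.

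In the prostaglandin pathway, PTGES, the enzyme that makes prostaglandin E2 from the product of PTGS2, fell in both series. Its EZH2 series values were 8.06 and 8.61 FPKM with siNC, 4.17 and 4.05 with siEZH2-1, and 3.94 and 4.17 with siEZH2-2. These groups were far apart from siNC and overlapped each other (mean log2 fold change -0.88 ± 0.06; limma adjusted p = 3.17e-04). PTGES in the LAT1 series had 7.06 and 7.36 FPKM with siNC, 6.2 and 6.34 with siLAT1-2, and 5.02 and 4.51 with siLAT1-3 (mean log2 fold change -0.34; limma adjusted p = 0.00298). Its direction was opposite to that of PTGS2 there, but PTGES was called with siLAT1-3 only (-0.51, limma adjusted p = 0.0012). The siRNAs differed by -0.34 (limma adjusted p = 0.00809), and the call from the mean was lost when both were pooled (0.146). Of 7 tested, 0 were higher and 1 lower in the EZH2 series (also 0 and 1 by limma at an unadjusted p under 0.05), and 1 was higher and 2 lower in the LAT1 series.

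Acute-phase and antimicrobial genes were mostly under 1 FPKM, 14 of 16 in the EZH2 series and 11 of 16 in the LAT1 series. Of the 5 tested in the LAT1 series 2 were higher and 1 lower, and of 2 tested in the EZH2 series 0 passed the threshold (0 higher and 1 lower by limma at an unadjusted p under 0.05). LCN2, which binds bacterial iron carriers, had 5.90 and 6.89 FPKM with siNC of the LAT1 series, 9.99 and 8.75 with siLAT1-2, and 6.96 and 7.57 with siLAT1-3. It stood above siNC in all 4 siLAT1 libraries, by little with siLAT1-3 (mean log2 fold change 0.33; limma adjusted p = 0.0166), and its call was lost without siNC replicate 1 (limma adjusted p = 0.125). SLPI, an inhibitor of neutrophil elastase, was at 19.1 ± 1.13 and 28.3 ± 0.37 FPKM against 30.9 ± 1.00 with siNC (mean log2 fold change -0.40; limma adjusted p = 5.64e-04). It was called with siLAT1-2 (-0.67, limma adjusted p = 1.15e-04) and not with siLAT1-3. The call from the mean was lost when both siRNAs were pooled (limma adjusted p = 0.24).

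Transcription factors and inhibitors of NF-kB, AP-1 and C/EBP were tested in 15 members in the EZH2 series (1 higher, 3 lower) and 17 in the LAT1 series (8 higher, 4 lower). The 4 largest changes among them in the LAT1 series were those of CEBPD at 0.45, JUN at 0.30, RELB at 0.28 and BCL3 at -0.26 on the log2 scale, the last losing its call without siNC replicate 1 (limma adjusted p = 0.0712) or replicate 2 (0.0731). RELB, an NF-kB subunit, was at 15.56 and 15.14 FPKM with siLAT1-2, 10.90 and 10.18 with siLAT1-3, and 9.96 and 10.65 with siNC, so that siLAT1-2 stood above siNC and siLAT1-3 overlapped it. It differed between the siRNAs by -0.50 (limma adjusted p = 7.62e-04), and its call was lost when both were pooled (0.361). CEBPD, a C/EBP factor induced in inflammation, had 14.66 and 16.67 FPKM with siNC, 22.14 and 22.20 with siLAT1-2, and 21.95 and 20.94 with siLAT1-3 (limma adjusted p = 8.70e-04). In the EZH2 series FOSL1, an AP-1 subunit abundant in squamous cells, had 63.24 and 70.88 FPKM with siNC. It had 51.67 and 56.05 FPKM with siEZH2-1, and 37.39 and 33.21 with siEZH2-2. Its mean log2 fold change was -0.61 (limma adjusted p = 0.00208). FOSL1 differed between the siRNAs by -0.60 (limma adjusted p = 0.0062), and its call from the mean was lost when both were pooled (0.117). The 3 groups did not overlap. ATF3, a stress-induced factor, rose from 14.6 ± 0.42 FPKM to 22.4 ± 0.65 and 18.9 ± 0.89.

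Genes that control decay of AU-rich messages, a class to which several of these cytokine transcripts belong, numbered 12, all tested. With LAT1 siRNAs 6 were higher and 2 lower, and in the EZH2 series 1 was higher and 3 lower. ZFP36L1, which promotes decay, was higher by 0.25 (limma adjusted p = 0.00243) in the LAT1 series. ZFP36L2 of the same family was lower by -0.41 (limma adjusted p = 0.00571) in the EZH2 series, a call lost without siNC replicate 1 (limma adjusted p = 0.0502). DCP2, the decapping enzyme, was at 8.61 ± 0.13 FPKM with siLAT1-2, 14.8 ± 0.10 with siLAT1-3 and 7.17 ± 0.42 with siNC, most of the change coming with siLAT1-3.

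**Figure D4:**
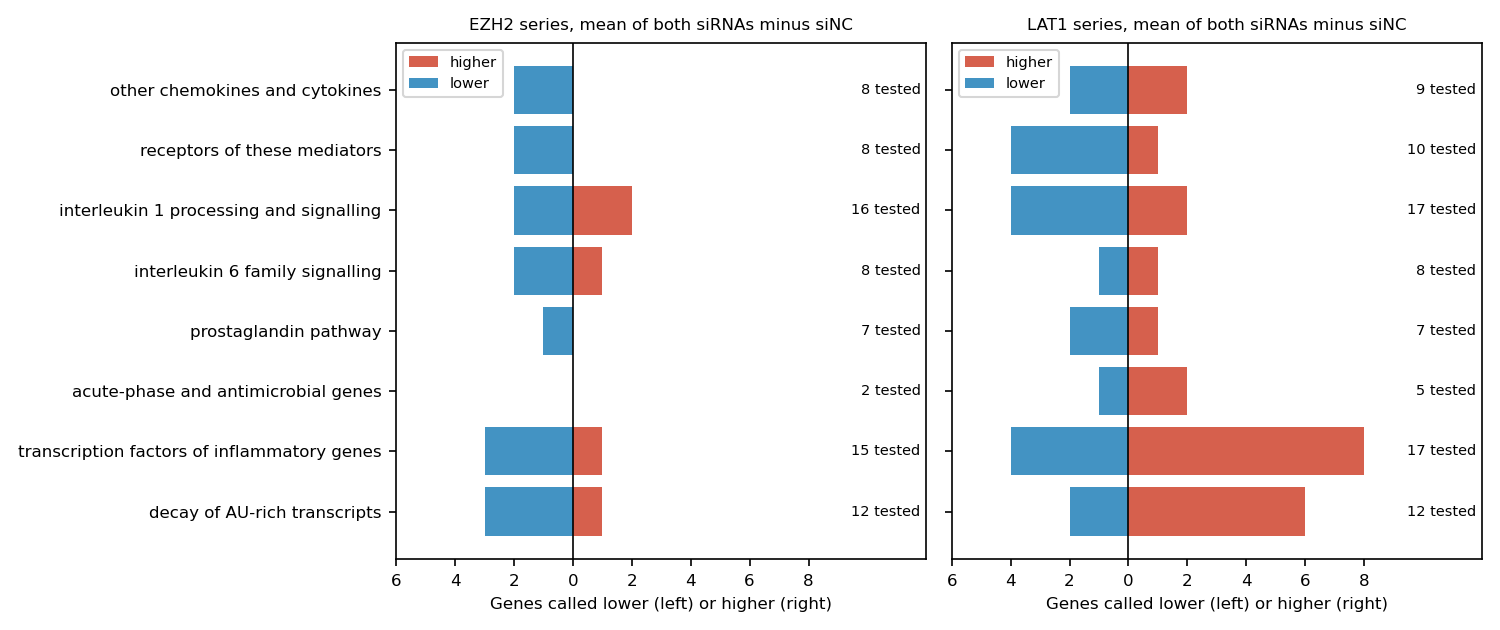
Number of genes lower (bars to the left) or higher (bars to the right) than siNC at a limma adjusted p under 0.05 by the mean of both siRNAs, for 8 lists of related genes in each series, with the number tested beside each. The transcription factor and AU-rich decay lists have the longest bars to the right in the LAT1 series, with 8 of 17 and 6 of 12.

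To name the genes with a pattern most like CXCL1 and IL8, the chemokines furthest apart in level between the series, log2 values were centred on each table's mean and correlated over the 12 libraries with the 915 genes tested in both series whose centred values had an SD of at least 0.3. These points share libraries, depth and siNC, so the values only describe. For CXCL1 the nearest were CD164 (Pearson r = 0.871), HOXA9 (0.860), RAPGEF1 (0.847), MSL1 (0.846) and PDE8A (0.837). Since CXCL1 was listed at or near 0 throughout the EZH2 series, nearly all of its own variation came from the 6 libraries of the LAT1 series. The EZH2 series libraries still entered r, which is lowered for genes that changed there. For IL8 the nearest were MAPK6 (0.907), ZNF367 (0.899), FAM217B (0.881), ZNF664 (0.872) and SNORA14B (0.861).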

How the data were processed

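RNA of 12 KYSE510 libraries was analysed, and 2 CUT&Tag samples were not used here. The authors deposited FPKM values, counts scaled to gene length and library depth, in 2 tables of 6 libraries, each normalized on its own; the unit was read from the values, since neither headers nor labels name it, and RPKM could not be told apart from it. Trimming, alignment and peak tools (Trim Galore, STAR, Bowtie, Bowtie2, Picard, SEACR) and both hg38 and hg19 are listed in the submitters' processing notes, with no link to a table. The counting program, strand setting and handling of reads that match several genes are not given in the sources used here. In the LAT1 series both siNC titles carry the same replicate number, and the descriptions, which number them apart, were followed.

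Each table was fitted alone with limma 3.58.1 in R 4.3.3 (trend, empirical Bayes) on log2(FPKM + 1), with 1 group per siRNA and siNC, for genes averaging 1 FPKM or more over its 6 libraries. Calls used a two-sided adjusted p (Benjamini-Hochberg over all genes tested) under 0.05. Since an exact permutation test at this group size (4 against 2) stops at p = 0.0667, calls rest on a spread pooled across genes. Fold changes on this scale understate the change of low genes. Depth was estimated from RNA genes under 200 bases, where 82.8% to 88.1% of low values were whole reads within 0.12 reads, against 24% by chance for a depth not searched for.

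The 10 members and the lists were chosen with earlier results of these data known. Up to 4 called genes per list and series, by size of change, could be named; SAA2 was added as the neighbour of SAA1. Alternatives were leaving out each library, a replicate block, both siRNAs pooled, a filter at 5 FPKM or none, a pseudocount of 0.1, quantile normalization, and a minimum absolute log2 fold change of 1. A crossed block in the EZH2 series and counts without CXCL3 in the LAT1 series were added after seeing the data. The procedure was tested on simulated data. Promoters came from RefSeq (GRCh38.p14). Tables and plots were made with Python 3.11.15.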

Additional observations from a re-analysis of the deposited data

Results flagged for a closer look

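In 7 cases the siRNAs against 1 target differed from each other by limma at an adjusted p under 0.05. The mean of both then hides part of the response. Over all genes 25.5% differed so in the LAT1 series and 16.3% in the EZH2 series. The EZH2 series differences, and that of IL6 in the LAT1 series, lost their calls when certain single libraries were left out. With siLAT1-3 minus siLAT1-2 the log2 differences were -0.64 for IL8, -0.69 for SAA1, -0.23 for CXCL1 and 0.52 for IL6. With siEZH2-2 minus siEZH2-1 they were 0.52 for IL8, 0.38 for IL6 and -0.34 for LIF. IL8 and IL6 were in both sets. IL8 was the higher with siLAT1-2 and siEZH2-2, and IL6 with siLAT1-3 and siEZH2-2.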

How the results depend on the processing

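Of 756 values of single members under the alternatives, 641 kept their direction and side of the threshold, 93 were no longer called, 15 became called and 7 changed sign. CXCL1, CXCL2 and PTGS2 in the LAT1 series and IL1A, IL1B, LIF and SAA1 in the EZH2 series, by the mean of both siRNAs, kept their calls in every alternative that tested them other than the minimum log2 fold change of 1. That minimum left 1, 0, 1 and 0 members called in the EZH2 series (mean of both siRNAs, siEZH2-1, siEZH2-2, and siRNA against siRNA) and 2, 2, 2 and 0 in the LAT1 series, where 5, 5, 5 and 3 and 6, 5, 6 and 4 had been called, CXCL3 included. Over all genes that minimum left 89, 159, 144 and 105 of 11585 called in the EZH2 series, in the same order. In the LAT1 series it left 51, 99, 97 and 75 of 11678. The filter at 5 FPKM, which tests fewer members, left 3 called by the mean, by siEZH2-1 and by siEZH2-2. Of all 7330 genes tested at that filter, 2726, 2530 and 2244 were called in that order. Without a filter, 3 members were called with siEZH2-1, 0 between the EZH2 siRNAs, 3 with siLAT1-3 and 2 between the LAT1 siRNAs. Over all genes, 1604 and 836 of 29763 were then called in these EZH2 contrasts, against 3156 and 1883 of 11585 with the filter. In the LAT1 contrasts the counts were 2402 and 1823 of 28719, against 3672 and 2981 of 11678. Pooling both siRNAs as 1 group left 3 members called in the LAT1 series, beside 1309 of 11678 genes. The causes of these differences were not tested.

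With each library left out in turn, 1 group keeps 1 library, so members that changed are named and not counted. In the EZH2 series IL8 lost its call by the mean in some of these fits. IL6 and LIF lost theirs with siEZH2-1, and IL8, IL6 and LIF between the siRNAs. SAA1 gained a call between the siRNAs, and no member lost one with siEZH2-2. In the LAT1 series IL1A lost its call by the mean, IL1A and IL6 with siLAT1-3, and IL6 between the siRNAs. Calls were gained by IL1A and SAA1 with siLAT1-2, by SAA1 with siLAT1-3 and by IL1A between the siRNAs. CXCL3, which is given by value only, is left out here. With siEZH2-1, IL6 and LIF were both lost without siEZH2-1 replicate 2 or siNC replicate 2. Between the EZH2 siRNAs, IL8, IL6 and LIF were all lost without siEZH2-1 replicate 1 or either siEZH2-2 library. Without siEZH2-1 replicate 2, IL6 and LIF were lost. Over all genes fewer were called in every contrast whenever 1 library was left out, whereas the members both lost and gained calls. The 7 sign changes were all of changes that missed the threshold, and for the same results the values with 1 library left out span a range given here. IL8 with siEZH2-1 was -0.00311 without siEZH2-1 replicate 2 and at most 0.196. IL1A between the EZH2 siRNAs was 0.00664 without siEZH2-1 replicate 1 and at least -0.192. IL1B by the mean of both LAT1 siRNAs was 0.00433 without siLAT1-2 replicate 1 and at least -0.0711. IL1B with siLAT1-2 was -0.00911 with quantile normalization, -0.0544 without siLAT1-2 replicate 2 and at most 0.0965. SAA1 by the mean of both LAT1 siRNAs was -0.0367 without siLAT1-2 replicate 1, -0.142 without siNC replicate 2 and at most 0.193.

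Between groups, the differences of replicate 1 minus replicate 2 correlated across genes at 0.355 for siEZH2-1 with siNC, -0.353 for siEZH2-1 with siEZH2-2 and -0.340 for siEZH2-2 with siNC, so those of siEZH2-2 ran against the others. Among LAT1 libraries the values were 0.018, 0.033 and 0.083, and replicate numbers were not taken as pairs in either series. With the replicate number as a block, 1 member was called between the EZH2 siRNAs in place of 3, IL1A by the mean in the LAT1 series lost its call (limma adjusted p = 0.0645) and SAA1 with siLAT1-2 gained one (limma adjusted p = 0.0335). Over all genes the block called 2388 of 11585 in the EZH2 series by the mean of both siRNAs against 3481 without it. Between the EZH2 siRNAs it called 1021 against 1883. With the numbers of siEZH2-2 crossed in the block, chosen after seeing the data, 6319, 6069, 5695 and 4627 genes were called (mean, siEZH2-1, siEZH2-2, siRNA against siRNA). Among them were 6, 5, 5 and 5 members. All-gene counts by the mean ranged from 1357 (without siNC replicate 1) to 3343 in the EZH2 series and from 2290 (without siNC replicate 1) to 3610 of the 4032 in the LAT1 series when 1 library was left out. They were 1153 and 1309 with both siRNAs pooled, and 1820 in the EZH2 series without a filter. CXCL1, CXCL2, CXCL3 and PTGS2 were under 1 FPKM in the EZH2 series and had no test there.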
